A study of Homo sapiens with 6 samples.

Results

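The Mediator complex and the TBP-associated factors (TAFs) are the bridge between transcription factors bound to DNA and RNA polymerase, and their genes were followed here on silencing of WDR5 in breast cancer cells. The members were taken by symbol from the deposited count table, as every gene named MED or TAF with a number, together with CDK8, CDK19, CCNC and TBP, which gave 58 of the 26334 genes listed. MCF10DCIS.com is a human basal-like breast line of the MCF10A series that grows in mice as lesions resembling ductal carcinoma in situ. The control group (shLuc) was infected with a vector carrying a hairpin against luciferase, which these cells do not use, and the silenced group (shWDR5) with the same backbone carrying a hairpin against WDR5. Both vectors also express TagRFP and puromycin resistance, the hairpins are driven by the U6 promoter, both groups were grown with horse serum and selected with 3 µg/ml puromycin, and each group has 3 poly-A RNA libraries. For other experiments with this line the study describes a pool of a pair of WDR5 hairpins, whereas the labels of these libraries name the hairpin only as shWDR5, and nothing in them says that the replicates came from separate infections, so p-values measure the spread between these libraries, which may be technical.

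WDR5 itself, the WD-repeat scaffold of the complexes that methylate lysine 4 of histone H3, was measured first because it checks the labels. It stood at 52.6, 48.5 and 51.3 CPM (a counts-per-million value on TMM-scaled library sizes) in shLuc replicates 1 to 3 and at 23.4, 24.4 and 20.8 in shWDR5 replicates 1 to 3. The groups did not overlap, and WDR5 fell by 55% (log2 fold change -1.15 ± 0.07, adjusted p = 8.67e-07). Library totals ran from 38218108 to 57640167 counts, and the 10 most abundant genes took 5.74% to 6.09% of counts in shLuc and 7.67% to 8.16% in shWDR5. Basal keratins were abundant, and 4 of the 5 basal markers listed (KRT5, KRT14, KRT17 and TP63, not ITGA6) were higher in shWDR5, with summed CPM of 5302 to 5487 in shLuc and 7960 to 8519 in shWDR5. The luminal list (KRT8, KRT18, KRT19, GATA3, ESR1) summed to 3325 to 3592 and 3235 to 3554 CPM, with KRT19 higher and GATA3 lower, and the epithelial pair EPCAM and CDH1 to 734 to 810.3 and 438 to 483, both lower. Markers of other cell types were low: the fibroblast list (COL1A1, COL1A2, PDGFRB, DCN) summed to 21.6 to 23.6 CPM in shLuc and 14.9 to 17.8 in shWDR5, the endothelial list (PECAM1, VWF, CDH5) to 7.58 to 7.93 and 4.71 to 5.36, and the leukocyte list (PTPRC, CD3E, CD14) to 1.47 to 1.94 and 0.838 to 0.971, with CD3E at 0 counts in every library. The part of these shifts in the values below was not tested.

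Mediator is built from a head, a middle and a tail, held together by the MED14 backbone. Activators mostly contact the tail and parts of the middle, the head and middle contact RNA polymerase II, and a separable kinase module made of CDK8 or its paralog CDK19, cyclin C (CCNC), MED12 and MED13 docks on the core and limits its contact with the polymerase. TFIID consists of TBP, which binds and bends the core promoter, and the TAFs, which recognise promoter sequence and modified histones. The TAF3 subunit carries a PHD finger that binds trimethylated lysine 4 of histone H3, the mark that WDR5-containing complexes deposit. Several genes with TAF names work elsewhere: TAF5L and TAF6L belong to the SAGA acetyltransferase complex, TAF1A to TAF1D to the SL1 factor of RNA polymerase I, and TAF15 is an RNA-binding protein of the FET family.

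Of the 58 genes, 10 were higher and 19 lower in shWDR5 at an adjusted p under 0.05 in edgeR's quasi-likelihood test over 16117 genes, and 29 did not pass. That is 50% of the members, beside 56.5% of all tested genes, of which 26.6% were higher and 29.9% lower; 17.2% of the members were higher and 32.8% lower. The share of members called is therefore near the background, and no difference in share is read from it. All 58 entered the test, but TAF7L passed the low-count filter only through the shWDR5 libraries, where it was high, and so had to differ; without it, 9 of 57 were higher and 19 lower. In bulk RNA, fewer cells with a transcript and less of it per cell cannot be told apart.

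The changes were mostly small. The median log2 fold change of the members was -0.10 (all tested genes: -0.01) and the median of its absolute size 0.23 (all tested genes: 0.31). Only 6 members, 10.3%, reached an absolute log2 fold change of 0.6, against 24.2% of all tested genes. The study gives this size limit for its comparisons in patient-derived xenografts. The 6 include TAF7L, which had to differ, and TAF1L. Both were low in shLuc, at 0.0598 and 0.0709 RPKM (a level per kilobase of exon and library size). The median shLuc level was 10.3 RPKM in members and 5.45 in all tested genes, and the part of level in this contrast was not tested. The study's limits on adjusted p, fold change and an RPKM over 0.5, also given for the xenografts, were then applied together to these libraries. That left 4 members (6.90%, against 18.4% of all tested genes): MED10 was higher (background for higher genes 7.9%), and MED30, TAF5 and TAF1A were lower (background for lower genes 10.5%). The library values of the groups did not overlap for 33 members, 11 higher and 22 lower in shWDR5, which is 56.9% of members beside 62.3% of all tested genes (29.9% higher and 32.4% lower). The 11 include TAF7L, whose separation followed from how it passed the low-count filter. Summed over its 33 genes, Mediator stood at 1235 to 1304 CPM in shLuc libraries and at 1237 to 1275 in shWDR5 libraries, ranges that overlap, while TBP with the 13 TFIID TAFs summed to 452 to 459.6 and 426 to 432, ranges that do not.

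**Figure D1:**
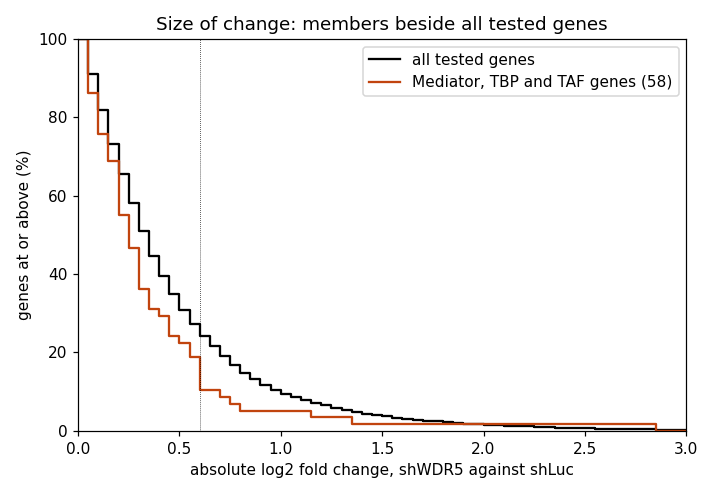
Percentage of genes (y axis) whose absolute log2 fold change between shWDR5 and shLuc is at or above the value on the x axis, for the 58 members and for all 16117 tested genes. At the dotted line, an absolute log2 fold change of 0.6, the curves stand at 10.3% of members and 24.2% of all tested genes. The members include TAF7L, which passed the low-count filter in shWDR5 alone. Members and all tested genes also differ in level, and the part of level in the curves was not tested.

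**Figure D2:**
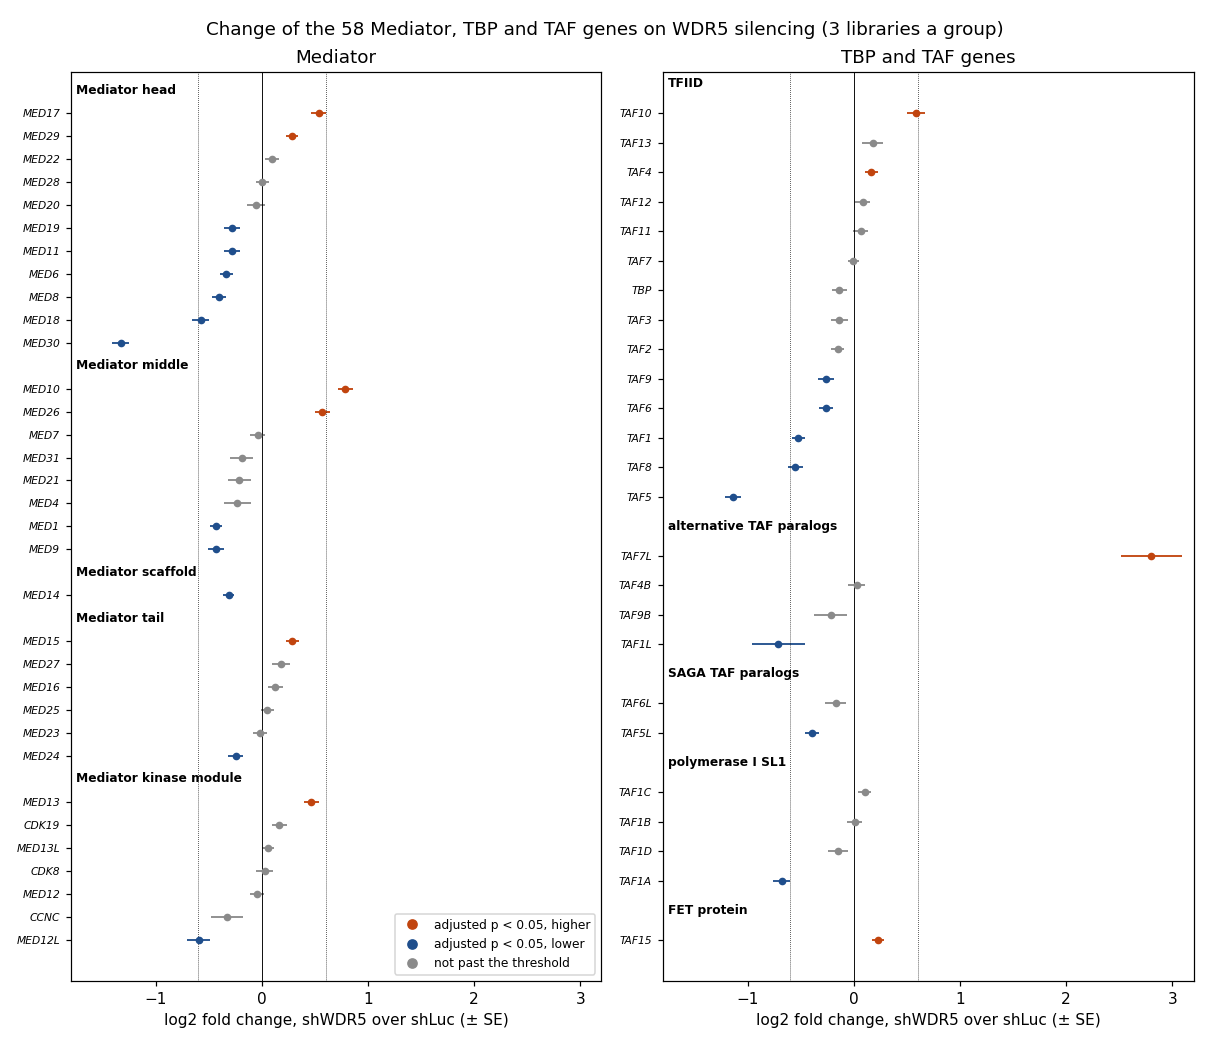
Log2 fold change of each of the 58 genes in shWDR5 over shLuc (points) with its standard error (bars), grouped by place in Mediator (left) and by complex for TBP and the TAFs (right), 3 libraries a group. Dotted lines mark 0.6 in each direction, and only MED10, MED30, TAF5, TAF1A, TAF7L and TAF1L lie beyond them.

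Promoters of some members that changed are shown so that their letters can be compared, but not that of MED30, which has no sequence entry. They are the 250 bases before the start of the gene in RefSeq (GRCh38.p14), 5′ to 3′ on the gene's strand, for the members past the study's limits that the sequence table lists, for TAF7L, which passed the low-count filter in shWDR5 alone, and for MED17 and MED18, the members with a motif match that changed most in each direction. Capitals mark matches on either strand to the ETS motif CCGGAAG or to TGCGCA, a piece found in the binding site of NRF1.
MED10, chr5:6378548-6378797 (- strand): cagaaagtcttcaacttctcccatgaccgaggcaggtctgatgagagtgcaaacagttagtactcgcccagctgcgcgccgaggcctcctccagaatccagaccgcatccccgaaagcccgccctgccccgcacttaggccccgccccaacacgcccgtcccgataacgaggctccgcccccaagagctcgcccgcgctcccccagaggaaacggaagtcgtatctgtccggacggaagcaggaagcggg
MED17, chr11:93784032-93784281 (+ strand): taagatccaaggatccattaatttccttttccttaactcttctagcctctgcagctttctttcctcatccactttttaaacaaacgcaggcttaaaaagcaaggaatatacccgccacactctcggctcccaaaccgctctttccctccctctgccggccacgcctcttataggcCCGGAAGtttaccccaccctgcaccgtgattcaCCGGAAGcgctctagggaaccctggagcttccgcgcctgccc
MED18, chr1:28328790-28329039 (+ strand): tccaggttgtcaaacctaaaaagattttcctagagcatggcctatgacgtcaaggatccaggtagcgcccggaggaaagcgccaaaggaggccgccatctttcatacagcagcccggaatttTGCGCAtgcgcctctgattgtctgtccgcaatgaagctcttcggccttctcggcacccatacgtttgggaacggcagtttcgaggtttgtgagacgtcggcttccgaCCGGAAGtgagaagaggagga
TAF5, chr10:103367726-103367975 (+ strand): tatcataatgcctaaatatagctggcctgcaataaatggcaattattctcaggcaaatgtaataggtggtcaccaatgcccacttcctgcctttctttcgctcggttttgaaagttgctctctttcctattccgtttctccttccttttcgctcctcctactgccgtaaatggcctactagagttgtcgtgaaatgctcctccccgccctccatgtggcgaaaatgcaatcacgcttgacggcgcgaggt
TAF1A, chr1:222589934-222590183 (- strand): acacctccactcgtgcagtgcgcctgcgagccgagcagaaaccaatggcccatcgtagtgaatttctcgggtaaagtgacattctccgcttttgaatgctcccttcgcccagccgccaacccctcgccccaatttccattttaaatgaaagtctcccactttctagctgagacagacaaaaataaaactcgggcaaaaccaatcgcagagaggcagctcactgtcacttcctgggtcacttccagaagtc
TAF7L, chrX:101293084-101293333 (- strand): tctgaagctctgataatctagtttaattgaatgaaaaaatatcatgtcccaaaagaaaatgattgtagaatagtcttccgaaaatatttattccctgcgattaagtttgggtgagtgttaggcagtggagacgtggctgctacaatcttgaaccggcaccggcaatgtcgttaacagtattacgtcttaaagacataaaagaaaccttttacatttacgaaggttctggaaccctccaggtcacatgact
MED17, which rose, holds the ETS letters in a pair of places, and MED18, which fell, holds them once with TGCGCA further upstream. The other 4 windows hold none of the letters searched, which also covered the E-box CACGTG and the TATA box TATAAA. Among the 46 members with an entry, the ETS letters were found in 10 (21.7%), beside 8.82% of all 27305 promoters in the table, non-coding genes included. TGCGCA was found in 5 members (10.9%; all promoters 7.05%), CACGTG in 6 (13%; all promoters 6.49%) and TATAAA in 2 (4.35%; all promoters 11.1%). Of the 8 listed members that were higher, 2 held the ETS letters, as did 2 of the 13 that were lower. The GC content of these windows had a median of 58.2% in members and 58% over the table, and ran from 38.4% in TAF7L to 64.4% in MED10 among those shown. A match describes letters only and is not a measured binding site.

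Of the 11 genes listed here as head, 6 were lower, 2 higher and 3 did not pass, with a median log2 fold change of -0.28. That is 72.7% called, beside 56.5% of all tested genes, of which 29.9% were lower and 26.6% higher. Whether modules differ from all genes or from each other was not tested. The head list includes MED28, MED29 and MED30 and the tail list MED27, and the module counts depend on this grouping. Values in parentheses here and below are log2 fold changes of shWDR5 over shLuc with their SE, and adjusted p-values are edgeR's. MED30, found in animals and not in yeast and listed here with the head, had the largest fall of any Mediator gene. Its values were 10.9, 10.4 and 10.8 CPM in shLuc and 4.12, 4.56 and 4.06 in shWDR5. Every shWDR5 library lay far below the lowest shLuc value, and MED30 fell by 60.3% (log2 fold change -1.33 ± 0.08, adjusted p = 7.17e-07). MED18, which with MED20 forms the movable jaw of the head, had 18.1, 17.6 and 17.4 CPM in shLuc and 13.1, 11.3 and 11.2 in shWDR5, groups that do not overlap (-0.57 ± 0.08, adjusted p = 0.000138). Its jaw partner MED20 did not pass (-0.06 ± 0.08, adjusted p = 0.607), whereas MED8, which tethers the jaw to the rest of the head, fell by 24.4% (-0.40 ± 0.07, adjusted p = 0.000611). Smaller falls were measured for MED6, which joins head to middle (-0.33 ± 0.06, adjusted p = 0.00125), for MED11 (-0.28 ± 0.08, adjusted p = 0.0102) and for MED19, a subunit near the hook where head and middle meet (-0.28 ± 0.08, adjusted p = 0.0101).

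MED17, the central scaffold of the head, went the other way. It read 20.4, 23.1 and 22.8 CPM in shLuc and 31.3, 31.3 and 33.4 in shWDR5, so that every shWDR5 library exceeded every shLuc library, and it rose by 44.8% (log2 fold change 0.53 ± 0.07, adjusted p = 0.000102). MED29, a metazoan subunit, rose less (0.28 ± 0.06, adjusted p = 0.00175). MED22 (0.09, adjusted p = 0.26) and MED28 (0.01, adjusted p = 0.941) did not pass, and MED28 differed by less than the spread between replicates. Leaving out shWDR5 replicate 2 ended the call of MED11, which then stood at -0.23 with an adjusted p of 0.053, and MED19 lost its call in DESeq2's Wald test (adjusted p = 0.0507).

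In the middle module 2 of 8 genes were higher, 2 lower and 4 did not pass. That is 50% called, beside 56.5% of all tested genes (26.6% higher and 29.9% lower), a difference that was not tested. MED10, a small and conserved middle subunit, stood at 13.4, 13.4 and 14.7 CPM in shLuc and 24.8, 23.2 and 23.5 in shWDR5. The groups lie well apart, and MED10 rose by 72.4% (log2 fold change 0.79 ± 0.07, adjusted p = 7.50e-06), the largest rise in Mediator. MED26, which can contact both TFIID and elongation factors, read 7.55, 7.61 and 7.53 CPM in shLuc and 11.3, 11 and 11.3 in shWDR5, nearly the same within each group, and rose by 48.2% (0.57 ± 0.07, adjusted p = 6.62e-05). MED1, the subunit through which nuclear receptors reach Mediator, had 106, 109.5 and 116 CPM in shLuc and 81.4, 83 and 81.5 in shWDR5 and fell by 25.8% (-0.43 ± 0.05, adjusted p = 7.94e-05). MED9 fell to a like extent (-0.43 ± 0.07, adjusted p = 0.000506).

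MED7 and MED21, partners in the hinge of the middle module, did not pass (-0.04 ± 0.07, adjusted p = 0.678, and -0.21 ± 0.11, adjusted p = 0.123). MED21 read 30.1, 36.9 and 34.5 CPM in shLuc and 24.5, 30.3 and 32.7 in shWDR5, and MED4 read 16.3, 21.2 and 19.8 in shLuc and 13.3, 17.2 and 18.3 in shWDR5. For both genes replicate 1 was the lowest library of its group in shLuc and in shWDR5, and the groups overlapped. MED4 stood at -0.23 ± 0.13, adjusted p = 0.15 with the full set, and at -0.32 with an adjusted p of 0.0442 without shLuc replicate 1. MED21 passed without shWDR5 replicate 3 (-0.30, adjusted p = 0.0459). With the replicate number as a block, MED4 and MED21 both passed (adjusted p = 0.00509 and 0.00524). MED31 overlapped between groups as well (-0.19 ± 0.11, adjusted p = 0.156). The backbone gene MED14, which runs through head, middle and tail, had 74.6, 79.1 and 77.8 CPM in shLuc and 61.5, 62.3 and 62.6 in shWDR5 and fell by 19.5% (-0.31 ± 0.05, adjusted p = 0.000554).

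In the tail, where many activators bind, 1 of 6 genes was higher, 1 lower and 4 did not pass (33.3% called, beside 56.5% of all tested genes, a difference that was not tested), with a median log2 fold change of 0.09. MED15, the tail subunit contacted by SREBP and SMAD factors, read 103, 103 and 96 CPM in shLuc and 131, 117 and 121 in shWDR5 and rose by 22.2% (0.29 ± 0.06, adjusted p = 0.00217). MED24 read 73.9, 69.2 and 65.7 CPM in shLuc and 63.5, 57.3 and 55.4 in shWDR5, with all 3 shWDR5 libraries lower (-0.25 ± 0.07, adjusted p = 0.0122); this call was lost without shWDR5 replicate 2 (adjusted p = 0.0525) and without shWDR5 replicate 3 (adjusted p = 0.0508). MED23, which the ETS factor ELK1 contacts, differed by less than the replicate spread (-0.02, adjusted p = 0.84), as did MED25 (0.05, adjusted p = 0.506). MED16 (0.12 ± 0.07, adjusted p = 0.161) and MED27 (0.18 ± 0.08, adjusted p = 0.0906) also overlapped between groups, and MED27 passed without shLuc replicate 1 (0.27, adjusted p = 0.0211).

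In the kinase module 1 of 7 genes was higher, 1 lower and 5 did not pass. That is 28.6% called, beside 56.5% of all tested genes (26.6% higher and 29.9% lower), a difference that was not tested. MED13, the subunit that anchors the module to the core, stood at 98.9, 118 and 106 CPM in shLuc and 139, 151 and 157 in shWDR5, and rose by 38.3% (0.47 ± 0.07, adjusted p = 0.000376). Its paralog MED13L did not pass (0.06 ± 0.06, adjusted p = 0.404). The kinase CDK8 read 18.4, 18.5 and 17.6 CPM in shLuc and 20.5, 16.9 and 18.4 in shWDR5, values that interleave (0.03 ± 0.08, adjusted p = 0.786), and its sign turned with the scaling (log2 fold change -0.03 with total counts only). CDK19 read 26.2, 29.8 and 28.5 CPM in shLuc and 30.6, 30.3 and 33.6 in shWDR5; every shWDR5 library was above every shLuc library, but the difference did not pass (0.16 ± 0.07, adjusted p = 0.078), although it did with DESeq2's size factors or upper-quartile factors in place of TMM (adjusted p = 0.0499 and 0.0303).

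CCNC, the cyclin partner of both kinases, was the most variable member of the module, at 76.3, 113 and 99.5 CPM in shLuc and 61.1, 79 and 89.9 in shWDR5. Replicate 1 was the lowest library in each group, the groups overlapped, and the log2 fold change of -0.33 ± 0.15 did not pass (adjusted p = 0.0931). CCNC was lower in shWDR5 in each of the 3 same-numbered comparisons, as were MED4 and MED21, but the numbers were not taken as pairs. CCNC passed with no low-count filter (adjusted p = 0.0434), without shLuc replicate 1 (log2 fold change -0.45, adjusted p = 0.0125) and without shWDR5 replicate 3 (-0.45, adjusted p = 0.0303). It also passed with the replicate number as a block (adjusted p = 0.000642). Other members gained a call under that block too, and all are named in the last section. MED12, which activates the kinase through cyclin C, did not pass (-0.05 ± 0.07, adjusted p = 0.568). Its low-level paralog MED12L read 3.93, 4.05 and 3.59 CPM in shLuc and 2.55, 2.78 and 2.29 in shWDR5 and fell by 33.9% (-0.60 ± 0.11, adjusted p = 0.00103).

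**Figure D3:**
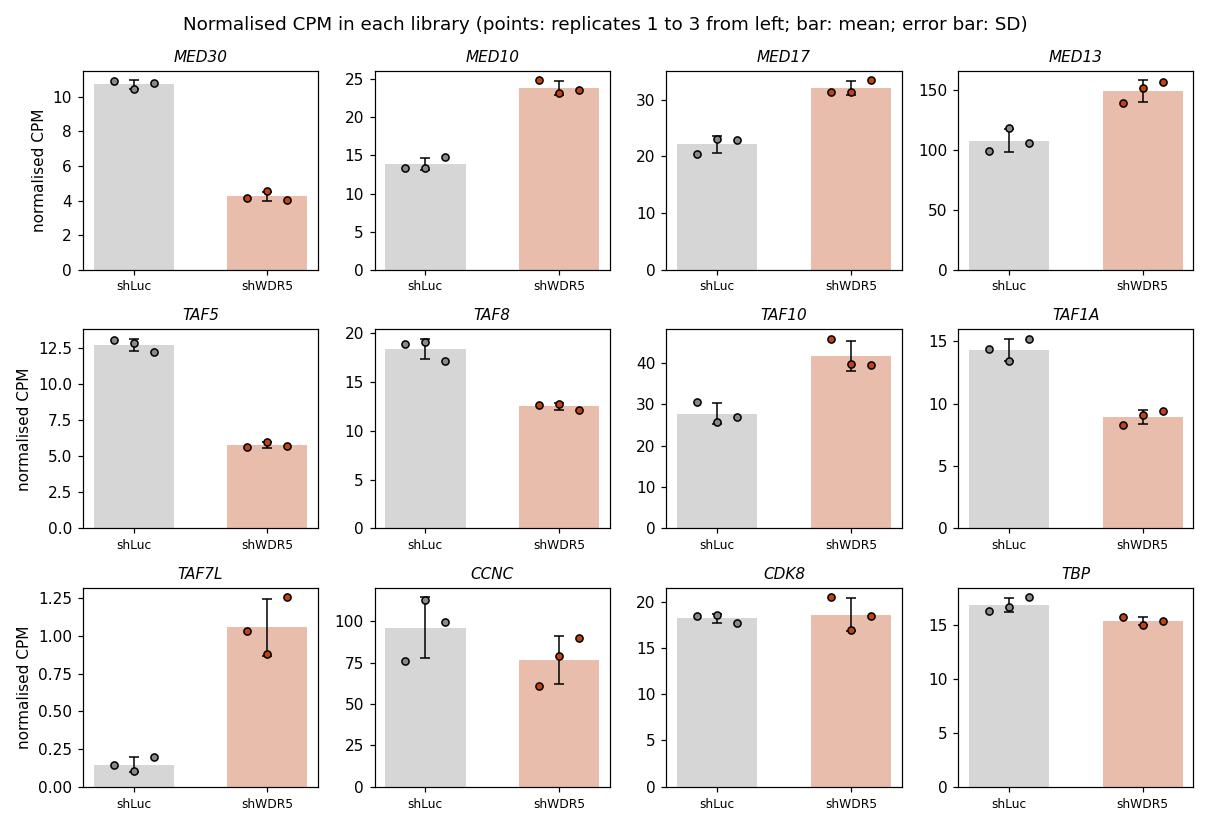
Normalised CPM (y axis, from 0) of 12 members in each library of shLuc (grey) and shWDR5 (orange), with points for replicates 1 to 3 from left, bars for the mean and error bars for the SD. MED30, TAF5, TAF8 and TAF1A lie lower in all 3 shWDR5 libraries, MED10, MED17, MED13, TAF10 and TAF7L lie higher, and CCNC and CDK8 overlap.

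Of TBP and the 13 TFIID TAFs, 5 were lower, 2 higher and 7 did not pass, with a median log2 fold change of -0.14. That is 50% called, beside 56.5% of all tested genes (29.9% lower and 26.6% higher), a difference that was not tested. TBP read 16.3, 16.7 and 17.5 CPM in shLuc and 15.7, 15 and 15.3 in shWDR5; every shWDR5 value was below every shLuc value, yet the difference did not pass (-0.14 ± 0.07, adjusted p = 0.109) except with total counts only (adjusted p = 0.0286). TAF5, the WD-repeat subunit at the centre of TFIID and one of the core TAFs, had the largest fall of the TFIID genes. Its values were 13.1, 12.8 and 12.2 CPM in shLuc and 5.66, 6.02 and 5.69 in shWDR5, tight within each group, and it fell by 54.5% (log2 fold change -1.14 ± 0.08, adjusted p = 1.07e-06). TAF1, the largest subunit, which carries bromodomains, read 46.8, 44.6 and 43.1 CPM in shLuc and 30.8, 31.9 and 30.9 in shWDR5 and fell by 30.5% (-0.52 ± 0.06, adjusted p = 3.89e-05). TAF7, which binds TAF1 and restrains it, differed by less than the replicate spread (-0.00 ± 0.05, adjusted p = 0.959); its sign turned positive with DESeq2's size factors (0.01).

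Most other TAFs assemble in pairs through histone folds, and the partners of a pair did not always take the same direction. TAF8, which brings TAF10 into the complex, read 18.9, 19.1 and 17.2 CPM in shLuc and 12.7, 12.8 and 12.1 in shWDR5 and fell by 31.9% (-0.55 ± 0.07, adjusted p = 8.87e-05), whereas TAF10 read 30.6, 25.7 and 26.9 CPM in shLuc and 45.8, 39.7 and 39.6 in shWDR5 and rose by 50.1% (0.59 ± 0.09, adjusted p = 0.000202). TAF3, the other partner of TAF10 and the subunit with the PHD finger, read 9.77, 9.52 and 10.3 CPM in shLuc and 9.5, 8.29 and 9.18 in shWDR5, lower in all 3 shWDR5 libraries without passing the test (-0.14 ± 0.08, adjusted p = 0.18). The partners TAF6 and TAF9 both fell (-0.27 ± 0.07, adjusted p = 0.00597, and -0.26 ± 0.07, adjusted p = 0.0106). TAF4 was higher (0.17 ± 0.06, adjusted p = 0.0387) and its partner TAF12 did not pass (0.08 ± 0.07, adjusted p = 0.375), and neither did TAF11 (0.06, adjusted p = 0.473) nor TAF13 (0.18, adjusted p = 0.168). With all 6 libraries, TAF4 lost the call with total counts only (0.11, adjusted p = 0.15), in DESeq2's Wald test (0.18, adjusted p = 0.0694) and with no low-count filter (0.16, adjusted p = 0.0857). In the 6 fits that left out 1 library its log2 fold change ran from 0.14 to 0.18 and the adjusted p from 0.0476 to 0.132, with the call held without shWDR5 replicate 1 and lost in the other 5. TAF2, which reads the initiator element, was lower in all 3 shWDR5 libraries but just outside the threshold (-0.15 ± 0.06, adjusted p = 0.0554) and passed with total counts only (-0.21, adjusted p = 0.0144) and without shLuc replicate 1 (adjusted p = 0.0394).

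The alternative TAFs, known for restricted use in germ cells or neurons, were low here apart from TAF4B and TAF9B. TAF7L, the X-linked germ cell paralog of TAF7, had 7, 4 and 8 reads in shLuc and 48, 50 and 57 in shWDR5, or 0.142, 0.103 and 0.198 CPM against 1.04, 0.88 and 1.26. All 3 shWDR5 libraries lay above all 3 shLuc libraries. The fitted log2 fold change of 2.80 is given as a description only, because the gene entered the test through its high shWDR5 values and its shLuc values rest on under 10 reads a library. TAF1L, an intronless copy of TAF1, had 23, 14 and 20 reads in shLuc and 13, 15 and 12 in shWDR5 (-0.71 ± 0.25, adjusted p = 0.0335); its call was lost in DESeq2's Wald test (adjusted p = 0.226), with no low-count filter (adjusted p = 0.0558) and in 5 of the 6 fits that left out 1 library (adjusted p 0.065 to 0.106), and held without shLuc replicate 2 (adjusted p = 0.0284), and reads of TAF1 itself can map to so similar a sequence. TAF4B (0.03 ± 0.08, adjusted p = 0.791) and TAF9B (-0.22 ± 0.16, adjusted p = 0.266) did not pass, and the sign of TAF4B turned with total counts only (-0.03).

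Of the SAGA paralogs, TAF5L fell by 23.9%, from 47.2, 51.7 and 53.3 CPM in shLuc to 38.4, 38.5 and 38.9 in shWDR5 (-0.39 ± 0.06, adjusted p = 0.000387), and TAF6L did not pass (-0.17 ± 0.10, adjusted p = 0.172), although it did without shWDR5 replicate 1 (-0.29, adjusted p = 0.015). Of the 4 TAFs of the polymerase I factor SL1, TAF1A was the only one to pass. It read 14.4, 13.4 and 15.2 CPM in shLuc and 8.31, 9.13 and 9.42 in shWDR5 and fell by 37.5% (-0.68 ± 0.08, adjusted p = 5.11e-05). TAF1B (0.01, adjusted p = 0.95), TAF1C (0.10, adjusted p = 0.171) and TAF1D (-0.15, adjusted p = 0.196) overlapped between groups. TAF15, the FET protein and the most abundant member, read 241, 231 and 255 CPM in shLuc and 277, 280.5 and 295 in shWDR5 and rose by 17.2% (0.23 ± 0.06, adjusted p = 0.00527).

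Paralogs were compared by the ratio of their levels per kilobase of exon and library size (RPKM) within each library, over 9 pairs. In the pairs TAF5 with TAF5L and TAF6 with TAF6L, the first gene was listed under TFIID and the second under SAGA. With 3 libraries against 3, a two-sided exact permutation test cannot give a p under 0.1, so none could pass. Of the 9 pairs, 5 reached that smallest value, which came to 0.18 after Benjamini-Hochberg adjustment over the pairs. Among these 5 is TAF7 with TAF7L, which is a description only, because TAF7L passed the low-count filter through shWDR5 alone. The MED13 to MED13L ratio was 0.983 ± 0.0533 (SD, n = 3) in shLuc and 1.31 ± 0.0913 in shWDR5, a difference of 0.41 ± 0.07 (SE) on the log2 scale, and the groups did not overlap. MED12 exceeded MED12L 18.4 ± 0.452 times in shLuc and 27.2 ± 2.98 times in shWDR5 (log2 difference 0.56 ± 0.10). TAF5 stood below TAF5L, which belongs to SAGA, in both groups. The ratio of TAF5 to TAF5L was 0.471 ± 0.0452 in shLuc and 0.28 ± 0.0102 in shWDR5 (log2 difference -0.74 ± 0.08), with both genes lower in shWDR5. TAF7 outweighed TAF7L 932 ± 284 times in shLuc and 124 ± 21 times in shWDR5, a ratio whose denominator in shLuc rests on few reads.

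The ratio of TAF4 to TAF4B was 1.79 ± 0.143 in shLuc and 1.96 ± 0.0407 in shWDR5, without overlap (log2 difference 0.14 ± 0.07). The kinases CDK8 and CDK19 kept overlapping ratios, 2.36 ± 0.174 in shLuc and 2.15 ± 0.244 in shWDR5 (log2 difference -0.14 ± 0.11, exact permutation p = 0.3). Overlap was also seen for TAF6 to TAF6L (2.37 ± 0.137 and 2.24 ± 0.218), TAF9 to TAF9B (4.77 ± 0.564 and 4.67 ± 0.726) and TAF1 to TAF1L (65.3 ± 11.7 and 72.9 ± 3.56). TAF6 and TAF9 share exonic sequence with other genes, as given below, so their ratios are less certain.

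**Figure D4:**
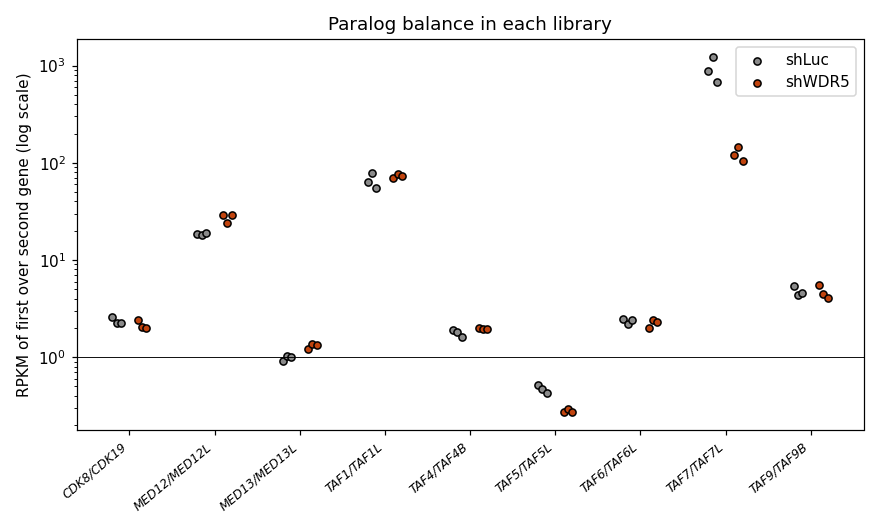
Ratio of RPKM of the first gene over the second (y axis, log scale) for 9 paralog pairs (x axis), with 1 point for each of 3 shLuc (grey) and 3 shWDR5 (orange) libraries. The groups separate for MED12/MED12L, MED13/MED13L, TAF4/TAF4B, TAF5/TAF5L and TAF7/TAF7L and overlap for the other 4 pairs. TAF7L passed the low-count filter through shWDR5 alone, so its pair is a description only.

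Levels per exon length differed far more between members than between groups. In shLuc the mean RPKM of the members ran from 0.0598 ± 0.0194 (SD, n = 3) in TAF7L to 111 ± 5.51 in TAF15, with a median of 10.3 (all tested genes: 5.45). After TAF15 came TAF7 at 52.2 ± 1.74, CCNC at 41.7 ± 7.98 and TAF10 at 34 ± 3.09, with CCNC and TAF10 within a spread of each other and TAF1D at 33.6 ± 2.91 close to TAF10. In shWDR5, TAF7 at 52.1 ± 1.31 and TAF10 at 51.1 ± 4.37 lay within the SD of TAF10. Within Mediator, CCNC and MED15 (26.3 ± 1.09) were the highest in shLuc and MED26 (2.38 ± 0.0123) and MED12L (0.369 ± 0.0226) the lowest. MED30 stood at 10.9 ± 0.243 in shLuc, above the median of the members, and at 4.31 ± 0.275 in shWDR5. Only TAF7L, TAF1L and MED12L were under 0.5 RPKM in both groups. The order of the 58 levels was much the same in both groups (Spearman's rho 0.94 across genes, which share libraries and lengths and are not replicates). Neither exon length (rho -0.06) nor shLuc level (rho 0.13) went far with the log2 fold change across the 58 members. Over all tested genes the values were -0.08 for length and -0.13 for level, the latter of the other sign.

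**Figure D5:**
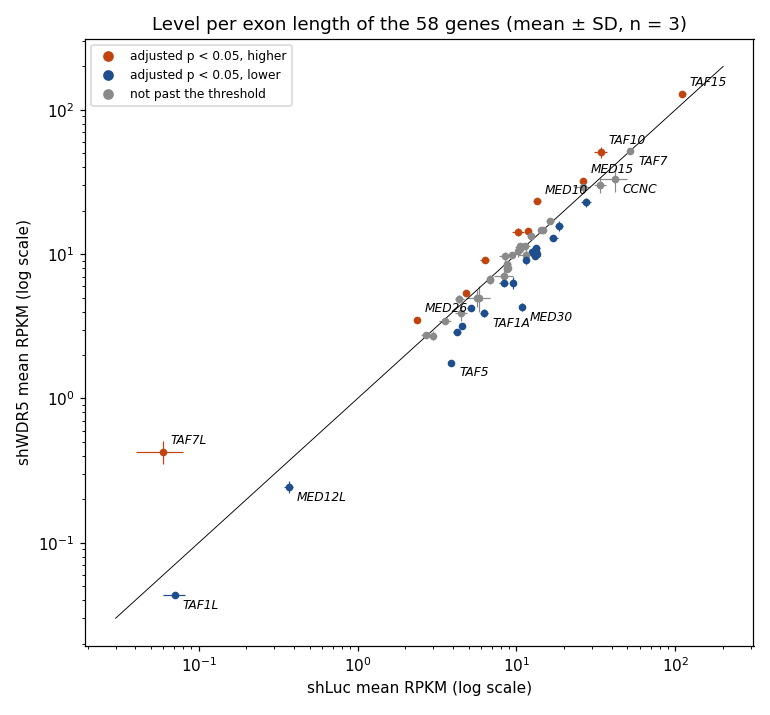
Mean RPKM of each of the 58 genes in shWDR5 (y axis, log scale) against shLuc (x axis, log scale), with bars for the SD over 3 libraries and a line of equal level. Orange points were higher and blue points lower at an adjusted p under 0.05, and grey points did not pass. Most points lie near the line, TAF7L lies above it, and MED30, TAF5 and TAF1A lie below it.

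The members lie on 21 chromosomes, and 4 pairs of them are under 500 kb apart in hg19, the build of the count table. In none of these pairs did both genes pass. MED17 (chr11:93517405-93546496) rose, while TAF1D (chr11:93469096-93474703), 42.7 kb away, did not pass. TAF8 (chr6:42018251-42048644) fell and MED20 (chr6:41873091-41888885) did not pass. MED18 (chr1:28655513-28662478) fell and TAF12 (chr1:28929609-28969604) did not pass. TAF1 (chrX:70586089-70750375) fell and MED12 (chrX:70338406-70362304) did not pass. The coordinates span each gene from its first to its last annotated exon.

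Some values share exonic sequence with another gene, and the library protocol describes no step that marks the strand, so reads from the shared part cannot be assigned. Such overlap touched 14 members and exceeded 10% of exon length in 8. It was widest for MED31, of which 74.2% lies under TXNDC17 on the other strand, and for TAF9, with 53.7% in common with AK6 on the same strand. TAF9 also shared 28.4% with RAD17 on the other strand. TAF10 shared 35.5% with ILK, MED11 16.9% with CXCL16 and TAF6 15% with AP4M1, so the values of these genes are less certain. MED10, MED17, MED30 and TAF8 had no such overlap, TAF5 had 1.28% and TAF1A 1.84%.

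The partners of Mediator and TFIID at the promoter were taken from lists of the same machinery. Of the general transcription factors, 17 of 18 listed genes were tested, and 3 were higher, 8 lower and 6 did not pass (64.7% called). For this list and those below, 56.5% of all tested genes were called, 26.6% higher and 29.9% lower. No list was tested against that share. CCNH, the cyclin of the TFIIH kinase CDK7, fell from 31.1, 29.9 and 32.1 CPM in shLuc to 13.5, 15.3 and 14.5 in shWDR5 (-1.10 ± 0.07, adjusted p = 8.98e-07), and MNAT1, the assembly factor of the same kinase, fell too (-0.78 ± 0.08, adjusted p = 1.23e-05). The kinase subunit CDK7 did not pass (-0.07 ± 0.07, adjusted p = 0.432), and the TFIIH subunit GTF2H3 fell (-0.53 ± 0.07, adjusted p = 0.000107). GTF2A1L had 0 counts in every library and was not tested. Among TBP relatives and regulators, 2 of 4 tested genes were lower, BTAF1, which removes TBP from DNA (-0.34 ± 0.06, adjusted p = 0.001), and DRAP1, a subunit of the repressor NC2 (-0.18 ± 0.07, adjusted p = 0.0359).

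Of 14 SAGA genes tested, 2 were higher, 5 lower and 7 did not pass (50% called, beside 56.5% of all tested genes). The largest changes were those of the acetyltransferase KAT2B (-0.44 ± 0.11, adjusted p = 0.00606), the subunit SUPT7L (-0.42 ± 0.05, adjusted p = 9.29e-05) and the deubiquitinase adaptor ATXN7L3 (0.40 ± 0.06, adjusted p = 0.000279). For P-TEFb and the super elongation complex, which release paused polymerase, 5 of 11 genes were higher, 2 lower and 4 did not pass. That is 63.6% called, beside 56.5% of all tested genes (26.6% higher and 29.9% lower), a difference that was not tested. MLLT3, a YEATS-domain subunit, rose (1.16 ± 0.11, adjusted p = 1.46e-05), and the P-TEFb cyclins went apart, with CCNT2 higher (0.72 ± 0.10, adjusted p = 0.000204) and CCNT1 lower (-0.63 ± 0.08, adjusted p = 5.43e-05). Of the 3 TFIIIB genes, which serve RNA polymerase III, BRF2 was higher (0.53 ± 0.09, adjusted p = 0.000411), BDP1 lower (-0.33 ± 0.08, adjusted p = 0.00678), and BRF1 did not pass (0.22 ± 0.09, adjusted p = 0.0613). Over these lists together 29 of 49 tested genes were called, 59.2%, again near the 56.5% of all tested genes, with a median log2 fold change of -0.03.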

How the data were processed

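Poly-A RNA libraries of MCF10DCIS.com cells were made with the TruSeq RNA kit and sequenced on a HiSeq 2000, per the labels. The submitters' processing notes name TopHat2 2.1.0, featureCounts, edgeR 3.2.2 and the builds hg19 and GRCh37. The authors deposited raw read counts per gene for 6 libraries, whose columns carry the sample titles. They also deposited a table of their own edgeR comparison (fold changes and p-values), which was not used.

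Genes were kept with edgeR's filterByExpr (minimum count 10, which came to 0.213 CPM in at least 3 libraries), leaving 16117. Counts were tested with edgeR 4.0.16 (R 4.3.3; TMM factors, glmQLFit and glmQLFTest, two-sided, Benjamini-Hochberg adjustment over all tested genes, threshold 0.05); the fit was checked on simulated counts. CPM and RPKM use TMM-scaled library sizes and the table's exon lengths. The SE of a log2 fold change is its absolute value divided by the square root of F. Within a group, library pairs differed by more than sampling noise (chi-square over degrees of freedom 6.75 to 17.1), so none were merged. Alternatives were other scalings, DESeq2 1.42.0, limma-voom 3.58.1, other filters, leaving out each library and a replicate block. The members, lists and tests were chosen with earlier results of these data known. Text names WDR5, every called member, the paralog pairs, TBP, TAF1 and up to 3 called genes per related list; further members, listed genes and overlapping genes are named after their values were seen. The precision of a gene's value rests on the variation between libraries as well as on library totals of 38218108 to 57640167 counts. Protein levels were not analysed here.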

Additional observations from a re-analysis of the deposited data

How the results depend on the processing

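Over 14 alternative fits, 22 of the 29 called members kept direction and call in each. MED19, MED11, MED24, TAF4 and TAF1L lost the call in 1 or more, and TAF7L and MED12L dropped out only where genes had to exceed the study's RPKM limit, which left fewer genes tested. No called member changed sign; of the 29 not called, 12 gained a call in at least 1 fit. Leaving out 1 library at a time gave 9 to 10 members higher and 16 to 21 lower. The study's limits reduce the calls to 1 member higher and 3 lower, and over all tested genes to 1274 higher and 1688 lower, from 4291 and 4821, by construction. WDR5 stayed between -1.21 and -1.09 on the log2 scale.

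Signs turned in these fits for 7 members near 0, none of them called (CDK8, TAF4B, TAF7, MED23, MED25, MED28 and TAF1B). With total counts only, CDK8 came to -0.029 and TAF4B to -0.029. TAF7 came to 0.014 with DESeq2's size factors, 0.033 with upper-quartile factors, 0.0064 in DESeq2's Wald test and 0.012 with the RPKM filter. Leaving out 1 library at a time, CDK8 ran from -0.045 to 0.095, TAF4B from -0.0037 to 0.094 and TAF7 from -0.022 to 0.021.

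Replicate numbers are shared by the groups, and the deviations of same-numbered libraries from their group means correlated at 0.372, 0.0358 and 0.116. With other numbers, shLuc replicate 1 correlated at -0.0986 and -0.312, and shWDR5 replicate 1 at -0.225 and -0.165. Within groups, chi-square over degrees of freedom was 13.4 to 17.1 for library pairs with replicate 1, and 7.2 (shLuc) and 6.75 (shWDR5) for replicates 2 and 3. Replicate 1 thus deviated in both groups. These values do not settle whether the numbers are pairs, and the main fit did not pair them. With the replicate number as a block, 14 members were higher and 25 lower, and 4901 and 5511 of all tested genes. The 10 members called in that fit and not without the block were CCNC (adjusted p = 0.000642), MED4 (0.00509), MED21 (0.00524), TAF9B, TAF1D, TAF2 (0.0133), MED27, CDK19, TAF13 and MED16. Of the 3 shLuc libraries, 2 correlated best with the shWDR5 library of their own number.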
